A study of Mus musculus with 3 samples.

Results

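The genes described here encode the 4 opioid receptors and 3 of the opioid peptide precursors: *Oprm1*, *Oprd1*, *Oprk1*, *Oprl1*, *Penk*, *Pdyn* and *Pnoc*. *Pomc*, another opioid precursor gene, is not among them, and was tested in no comparison. The 7 genes were chosen by name, out of the 32285 genes counted, and not by a rule on their levels, though earlier results of these data were known. They were measured by single-nuclei RNA sequencing (snRNAseq), which tags the RNA of each nucleus with a barcode and each molecule with its own identifier (UMI), so that copies made by PCR are not counted again. The nuclei came from basolateral amygdala (BLA) dissected by hand of untreated C57BL/6NRj males aged 56 postnatal days, 4 brains to a dataset, and there was no other condition. The levels are described in libraries 2 and 3, the adult BLA replicates of those numbers, which held 3792 and 4588 barcodes with medians of 3316 and 4116 UMIs.

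Opioid receptors are coupled to inhibitory G proteins. When bound, they lower cyclic AMP production, open inwardly rectifying potassium channels and close presynaptic calcium channels, so that they reduce firing and transmitter release. Enkephalins, dynorphins and nociceptin are cut from larger precursor proteins, and in the amygdala this system is known for its part in fear, pain and reward, with dense mu receptors on the intercalated cell masses.

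All 7 genes are protein coding. In GRCm38 with the GENCODE vM21 annotation, the receptor genes are *Oprm1* (ENSMUSG00000000766) at chr10:6758506-7038198 on the forward strand, *Oprd1* (ENSMUSG00000050511) at chr4:132110726-132144486 on the reverse strand, *Oprk1* (ENSMUSG00000025905) at chr1:5588466-5606131 on the forward strand and *Oprl1* (ENSMUSG00000027584) at chr2:181715016-181720985 on the forward strand. The precursor genes are *Penk* (ENSMUSG00000045573) at chr4:4133531-4138819 on the reverse strand, *Pdyn* (ENSMUSG00000027400) at chr2:129686565-129699844 on the reverse strand and *Pnoc* (ENSMUSG00000045731) at chr14:65400673-65425472 on the reverse strand.

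Nuclei were put into groups by genes outside the family. Glutamatergic nuclei had at least 2 UMIs of the vesicular glutamate transporter genes *Slc17a7* and *Slc17a6* and none of *Gad1* and *Gad2*, which encode the GABA-synthesizing enzymes. GABAergic nuclei had the reverse. Both had less than 0.1% of their UMIs in the astrocyte transporter genes *Slc1a2* and *Slc1a3*. This gave 484 and 210 glutamatergic nuclei and 388 and 677 GABAergic nuclei in libraries 2 and 3. GABAergic nuclei were divided by *Foxp2*, which the study used for intercalated cells, and *Rarb*, which it used for the amygdalostriatal area. There were 73 and 151 nuclei with at least 3 *Foxp2* UMIs and no *Rarb* UMI, 59 and 160 with at least 2 *Rarb* UMIs as well, and 235 and 326 with fewer than 3 *Foxp2* UMIs, called *Foxp2*-low here.

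Marker genes that the rule did not use gave a partial check of these groups. The GABAergic marker *Dlx6os1* lay between 144 and 412 CPM (counts scaled to a total of 1000000 UMIs) in the 3 GABAergic groups and at 2.14 and 11.3 CPM in glutamatergic nuclei. *Tshz1* and *Meis2*, the other markers listed for intercalated cells, were high in both *Foxp2* groups. *Tshz1* reached 501 and 510 CPM without *Rarb*, 384 and 375 CPM with *Rarb*, and 43.2 and 41.0 CPM in *Foxp2*-low nuclei. The 5 other amygdalostriatal markers did not move together between the groups without and with *Rarb*. *Bcl11b* (82.3 and 89.0 against 218 and 236 CPM), *Rgs9* (72.0 and 76.3 against 144 and 172 CPM) and *Ppp1r1b* (0 and 1.59 against 3.46 and 6.39 CPM) were higher with *Rarb*. *Pde10a* was lower with *Rarb* (1453 and 1442 against 763 and 1049 CPM), and *Foxp1* overlapped (347 and 330 against 292 and 519 CPM). The groups are therefore named by their rule and not as cell types. The summed level of 5 astrocyte markers, which include the pair used in the rule, was 185 and 174 CPM in glutamatergic nuclei and 45.0 to 120 CPM in the GABAergic groups, against 14648 and 14124 CPM in astrocyte-like nuclei. The part of such foreign RNA in the results was not tested.

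Library 1 stood apart. Of its 819 barcodes, 62.9% held UMIs of both pairs of transmitter genes, against 3.32% and 4.95% in libraries 2 and 3. It gave 42 glutamatergic nuclei, 7 GABAergic nuclei and none in either *Foxp2* group of the comparisons. Libraries 2 and 3 shared 7 barcode sequences, none of them among the nuclei grouped here. The depth per nucleus differed between classes, with medians of 15526 and 13077 UMIs in glutamatergic and 7646 and 7246 UMIs in GABAergic nuclei. Values are therefore given as CPM of the UMIs summed over a group, and shares of nuclei also as the share that 3700 UMIs per nucleus would give. The counts come from 3′ ends, with no length correction, and no gene is ranked against another by level.

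**Figure D1:**
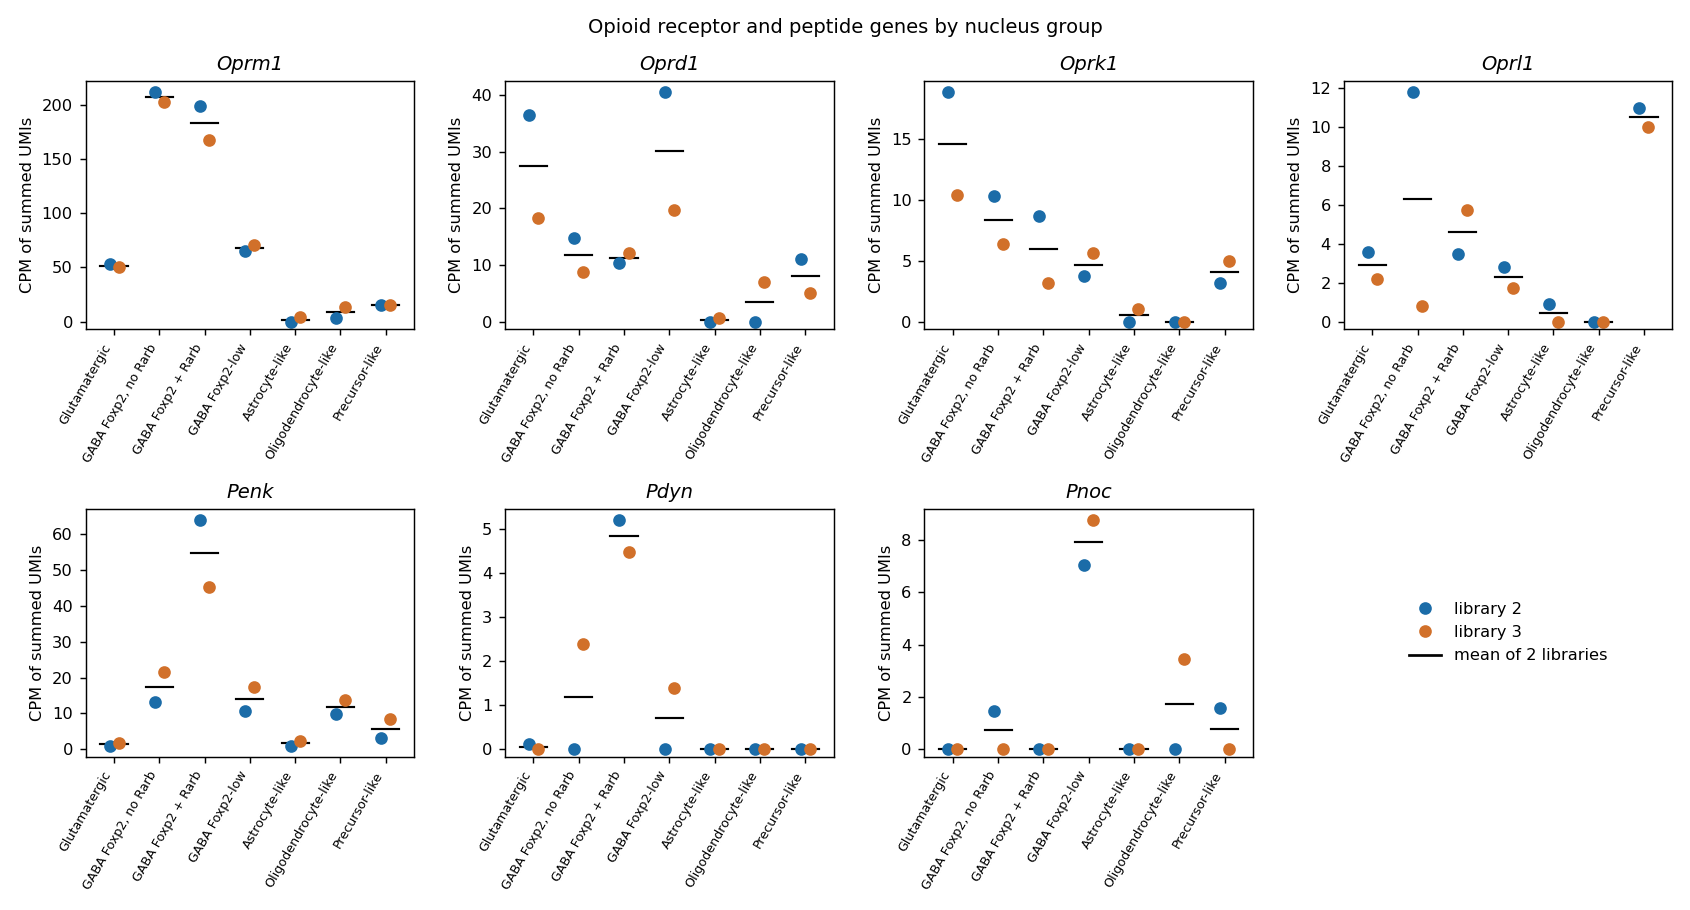
CPM of summed UMIs (y axes, linear, a separate scale per gene) for the 7 genes in glutamatergic nuclei, 3 groups of GABAergic nuclei and 3 groups of glia-like nuclei. Points are libraries 2 and 3 and lines their means. *Oprm1* was above 165 CPM in both *Foxp2* groups and below 71 CPM elsewhere, and *Pnoc* reached 7.05 and 8.75 CPM in *Foxp2*-low nuclei.

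*Oprm1* encodes the mu receptor, the main target of morphine, and was the receptor gene with the clearest split among the neurons. In glutamatergic nuclei it stood at 53.0 and 50.1 CPM in libraries 2 and 3, and in GABAergic nuclei at 120 and 130 CPM. The difference lay within the GABAergic nuclei. The *Foxp2* group without *Rarb* had 212 and 203 CPM, the group with *Rarb* 199 and 168 CPM, and *Foxp2*-low nuclei 64.8 and 70.4 CPM. The group without *Rarb* was slightly higher than the group with it in both libraries, and both lay above the other groups. The mean levels, in falling order, were 207 ± 6.36, 183 ± 21.9, 67.6 ± 3.89 and 51.5 ± 2.03 CPM (SD, n = 2 libraries), the last for glutamatergic nuclei. The 2 *Foxp2* groups held 18.8% and 15.2% of the GABAergic nuclei in library 2 and 22.3% and 23.6% in library 3. They gave 33.6% and 26.8% of GABAergic *Oprm1* UMIs in library 2 and 33.0% and 34% in library 3.

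The share of nuclei with an *Oprm1* UMI followed the same split. Without *Rarb* it was 65.8% (exact Clopper-Pearson 95% interval 53.7 to 76.5) and 70.2% (62.2 to 77.4), and with *Rarb* 71.2% (57.9 to 82.2) and 60.6% (52.6 to 68.2). In *Foxp2*-low nuclei the share was 33.2% (27.2 to 39.6) and 33.4% (28.3 to 38.8). Glutamatergic nuclei showed 40.7% (36.3 to 45.2) and 40.0% (33.3 to 47.0), at about double depth. At 3700 UMIs per nucleus the expected share was 16.4% ± 0.143 in glutamatergic nuclei, below the 19.8% ± 1.06 of *Foxp2*-low nuclei (SD, n = 2). The *Foxp2* groups without and with *Rarb* had 50.5% ± 2.27 and 46.0% ± 6.24 at 3700 UMIs. At full depth glutamatergic nuclei had instead stood above *Foxp2*-low nuclei. Nuclei with 3 or more *Oprm1* UMIs made up 31.5% and 23.8% of the group without *Rarb*, 33.9% and 25.6% of the group with it, and 7.23% and 5.83% of *Foxp2*-low nuclei. Oligodendrocyte-like nuclei, which should lack the gene, held a UMI in 0.962% and 3.05% of nuclei, at median depths of 2415 and 1917 UMIs. Intervals cover counting error only.

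Exons cover 2.87% of the *Oprm1* gene. *Ipcef1* runs along the opposite strand through 152403 bases of it, chr10:6885796-7038198. *Ipcef1* was at 49.4 and 55.8 CPM in glutamatergic nuclei, 85.3 and 115 CPM in the *Foxp2* group without *Rarb*, 91.7 and 79.8 CPM in the group with *Rarb*, and 23.0 and 23.8 CPM in *Foxp2*-low nuclei. Whether strand was used in counting is not given in the sources used here, and the part of shared reads in either gene was not tested.

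*Oprd1* encodes the delta receptor, an enkephalin receptor. It had 36.4 and 18.3 CPM in glutamatergic nuclei and 28.8 and 14.8 CPM in GABAergic nuclei. Within each library glutamatergic nuclei were the higher class. In both classes library 2 was higher, so the classes overlapped across libraries. Among GABAergic nuclei *Oprd1* was highest where *Oprm1* was lowest, with 40.4 and 19.6 CPM in *Foxp2*-low nuclei, 14.7 and 8.74 CPM without *Rarb*, and 10.4 and 12.1 CPM with *Rarb*. Levels in the *Foxp2* groups overlapped. *Foxp2*-low nuclei gave 83.5% and 63.6% of GABAergic *Oprd1* UMIs in libraries 2 and 3, while they made up 60.6% and 48.2% of the nuclei. A UMI was found in 33.5% (29.3 to 37.9) and 21.0% (15.7 to 27.1) of glutamatergic nuclei, and in 18.7% (13.9 to 24.3) and 10.4% (7.33 to 14.3) of *Foxp2*-low nuclei. At 3700 UMIs these became 11.6% and 6.86%, against 12.2% and 5.72%, so at equal depth the order of glutamatergic and *Foxp2*-low nuclei differed between the libraries. All GABAergic nuclei together had 8.65% and 4.48% at that depth, below glutamatergic nuclei in both libraries. In oligodendrocyte-like nuclei 0 of 104, which allows a share with a UMI of up to 2.88%, and 2 of 131 held a UMI.

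*Oprm1* and *Oprd1* are the receptor genes whose levels differed in opposite directions between the *Foxp2* groups and *Foxp2*-low nuclei, and their promoters are shown to set their starts side by side. They are 250 bases before to 50 after a RefSeq start (GRCm38.p6), 5′ to 3′ on the strand of the gene, chr10:6758343-6758642 for *Oprm1* and chr4:132144437-132144736 on the reverse strand for *Oprd1*. Capitals mark the GC box (GGGCGG on either strand).
Oprm1: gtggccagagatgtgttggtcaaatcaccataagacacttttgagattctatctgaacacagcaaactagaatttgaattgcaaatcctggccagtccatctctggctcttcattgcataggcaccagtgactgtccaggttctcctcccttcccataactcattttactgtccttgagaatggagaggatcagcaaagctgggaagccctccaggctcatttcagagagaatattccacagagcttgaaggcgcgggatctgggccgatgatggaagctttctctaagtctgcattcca
Oprd1: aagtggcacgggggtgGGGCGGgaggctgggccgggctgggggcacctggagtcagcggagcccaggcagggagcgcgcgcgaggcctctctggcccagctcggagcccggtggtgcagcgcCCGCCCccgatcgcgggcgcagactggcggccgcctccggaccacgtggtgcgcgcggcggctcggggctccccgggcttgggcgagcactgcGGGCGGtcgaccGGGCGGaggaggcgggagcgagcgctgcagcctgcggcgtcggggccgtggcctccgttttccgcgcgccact
The *Oprd1* window was 79.3% G or C and held 4 GC boxes, and that of *Oprm1* was 47.3% G or C and held none. A GC box is in 35.7% of all 32851 promoters of this length. Neither window held, on either strand, the cyclic AMP response element TGACGTCA (1.79% of promoters), the TATA box TATAAA (13.6%) or the RE1 core TTCAGCACC (0.371%). RefSeq lists 3 starts for *Oprm1*, of which the one nearest to the annotated 5′ end is shown. The others lie 30064 and 30070 bases after that end, and their windows were 52% and 52.3% G or C with 0 matches of these motifs. The contrast with *Oprd1* therefore holds for the window shown. A match is a description of letters and not a site of binding.

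*Oprk1*, which encodes the kappa receptor for dynorphins, was the one receptor gene higher in glutamatergic nuclei by the test below. It had 18.8 and 10.4 CPM there and 6.72 and 4.87 CPM in GABAergic nuclei, and the classes did not overlap. The share of glutamatergic nuclei with a UMI was 15.1% (12 to 18.6) and 10.0% (6.30 to 14.9), against 3.87% (2.18 to 6.30) and 3.84% (2.52 to 5.58) of GABAergic nuclei. At equal depth the expected shares were 4.94% and 3.72% against 1.68% and 1.74%. The 3 GABAergic groups had 3.19 to 10.3 CPM from 5 to 16 UMIs each. The group with *Rarb* overlapped both others, and the group without it, at 10.3 and 6.36 CPM, lay above the 3.76 and 5.60 CPM of *Foxp2*-low nuclei. No *Oprk1* UMI was found in oligodendrocyte-like nuclei.

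*Oprl1*, for the nociceptin receptor, was sparse. Glutamatergic nuclei had 3.57 and 2.21 CPM and GABAergic nuclei 5.04 and 2.52 CPM, and no GABAergic nucleus held more than 1 UMI. In the *Foxp2* group without *Rarb* the libraries disagreed, with 8 UMIs in library 2 and 1 in library 3. Oligodendrocyte precursor-like nuclei had 11 and 10.0 CPM, from 7 and 6 UMIs.

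*Penk* encodes proenkephalin, the source of the enkephalins, and among the grouped neurons was found mostly in GABAergic nuclei. These held 41.0% and 47.5% of its UMIs over all barcodes of libraries 2 and 3, and glutamatergic nuclei 3.72% and 1.69%. The rest lay in barcodes of neither class. Glutamatergic nuclei had 0.834 and 1.89 CPM, from 7 and 6 UMIs, and GABAergic nuclei 21.6 and 28.2 CPM. Among the latter, the *Foxp2* group with *Rarb* had the highest level in both libraries, at 64.0 and 45.3 CPM. The group without *Rarb* had 13.2 and 21.5 CPM and *Foxp2*-low nuclei 10.8 and 17.5 CPM, and these groups overlapped. Nuclei with *Foxp2* and a single *Rarb* UMI, which entered no comparison, had 43.4 and 73.0 CPM in 21 and 40 nuclei. A *Penk* UMI was found in 45.8% (32.7 to 59.2) and 26.3% (19.6 to 33.8) of nuclei with *Rarb*, 8.22% (3.08 to 17) and 12.6% (7.75 to 19.0) without it, and 5.53% (2.98 to 9.27) and 6.13% (3.79 to 9.32) of *Foxp2*-low nuclei. Of glutamatergic nuclei 1.45% and 2.38% held one, against 2.88% and 3.05% of oligodendrocyte-like and 0.292% and 0.806% of astrocyte-like nuclei, both at lower depth. The glutamatergic level was below the 9.74 and 13.8 CPM and the 0.913 and 2.43 CPM of these groups. Those values came from only 3 and 4 and from 1 and 7 UMIs. They are too few to set a background, and the glutamatergic level could not be told from it.

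The *Penk* gene shares 499 bases with *A830012C17Rik*, which runs the other way. That transcript was at 32.9 and 26.2 CPM with *Rarb*, 7.35 and 11.1 CPM without it, 5.17 and 6.30 CPM in *Foxp2*-low nuclei and 2.26 and 3.15 CPM in glutamatergic nuclei. It therefore moved in the same order as *Penk* between the GABAergic groups, and the part of shared reads was not tested.

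*Pdyn* encodes prodynorphin, the source of dynorphins. Only 1 and 0 UMIs were found in glutamatergic nuclei and 4 and 15 in GABAergic nuclei. Over both libraries this was 0.0864 against 1.99 CPM, a ratio of 23.1 with a 95% counting interval of 3.67 to 959. Of the GABAergic UMIs, 3 and 7 lay in the *Foxp2* group with *Rarb* (5.19 and 4.47 CPM), 0 and 3 in the group without, and 0 and 4 in *Foxp2*-low nuclei.

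*Pnoc* encodes the precursor of nociceptin and had the opposite distribution among GABAergic nuclei. No UMI was found in 694 glutamatergic nuclei, which allows a share with a UMI of up to 0.432%, nor in 219 nuclei with *Foxp2* and *Rarb*, which allows up to 1.37%. These limits are on nuclei with a UMI and not on nuclei that express the gene. The group without *Rarb* had 1 UMI in library 2 and 0 in library 3. *Foxp2*-low nuclei had 15 and 25 UMIs, or 7.05 and 8.75 CPM, which was 93.8% and 100% of the GABAergic total. With a limit of 3 counts over both libraries, the *Pnoc* level of GABAergic nuclei, from 41 UMIs, was 16.6 times the limit for glutamatergic nuclei. The level of *Foxp2*-low nuclei, from 40 UMIs, was 5.73 times the limit for nuclei with *Foxp2* and *Rarb*. Counting error in the 41 and 40 UMIs is not in these values, so they are not strict lower bounds. For *Foxp2*-low nuclei against the group without *Rarb* the ratio was 15.6, with a counting interval of 2.64 to 629.

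**Figure D2:**
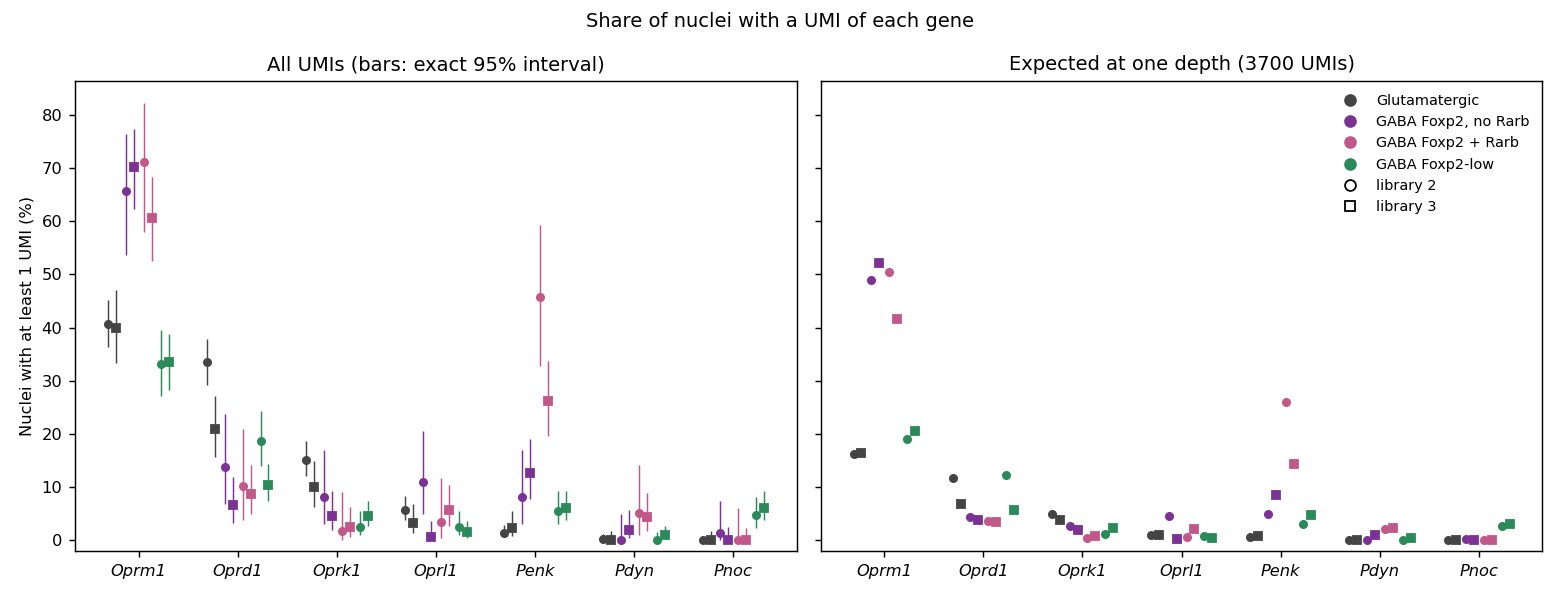
Share of nuclei with at least 1 UMI (y axis, percent) of each of the 7 genes in 4 groups of neurons, at full depth with exact Clopper-Pearson 95% intervals (left) and at a common depth of 3700 UMIs per nucleus (right), with circles for library 2 and squares for library 3. At equal depth the *Oprm1* share of the *Foxp2* groups stayed above 41%, while that of glutamatergic nuclei fell to 16.3% and 16.5%.

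Summed counts were then compared across libraries with edgeR's quasi-likelihood test, with Benjamini-Hochberg adjustment over all genes tested. Between glutamatergic and GABAergic nuclei 6 of the 7 genes passed the filter on low counts, and *Pdyn* did not. One of the 6, *Oprk1*, was higher in glutamatergic nuclei, against 7.75% of all 12872 genes tested, and 3 were lower, against 8.66%. *Oprm1* was 2.39-fold lower (log2 fold change -1.26 ± 0.17 SE, adjusted p = 0.000152) and *Oprk1* was 2.68-fold higher (1.42 ± 0.31, adjusted p = 0.00593). *Penk* was lower (-4.44 ± 0.41, adjusted p = 7.38e-06). Its glutamatergic level, from 7 and 6 UMIs, could not be told from background, so this size is not a measured fold. *Penk*, 1 of the 3 lower genes, had 0.834 and 1.89 CPM there and passed the filter through its GABAergic counts alone. It could thus only be called lower, and its adjusted p adds no support to the counts themselves. *Pnoc*, another of the 3 lower genes, had no glutamatergic UMI and also passed the filter through its GABAergic counts alone. It could thus only be called lower, and its adjusted p of 0.000186 adds no support to the counts themselves. Its fitted fold is not given because all glutamatergic values were 0. For *Oprd1* (0.44 ± 0.28, adjusted p = 0.383) and *Oprl1* (-0.23 ± 0.45, adjusted p = 0.835) no difference was detected, which does not show equal levels. When library 1 was added, 5 of 11757 genes passed and none of the 7 genes did, with *Oprm1* at -1.27 and *Oprk1* at 1.58 on the log2 scale (adjusted p = 0.305 and 0.419). *Penk* was then at -1.67 (adjusted p = 0.9995).

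**Figure D3:**
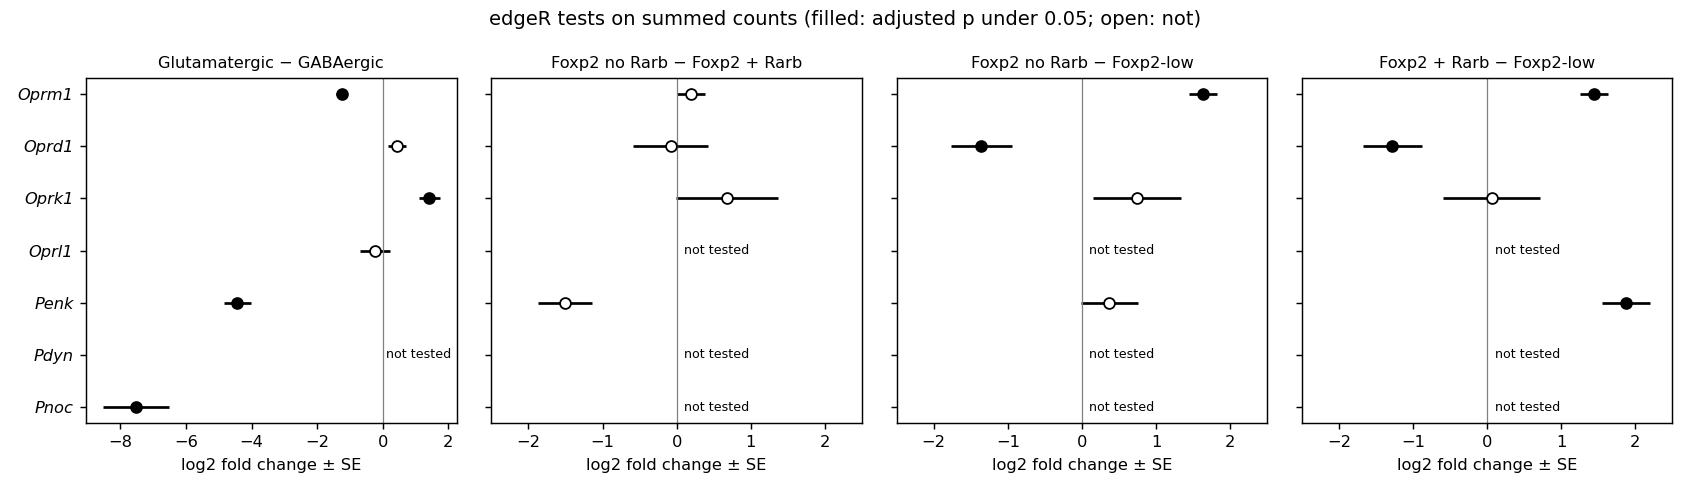
Log2 fold change (x axes) for each of the 7 genes in the 4 comparisons of nucleus groups, from edgeR on counts summed per group and library. Bars are standard errors worked back from the F statistic of the test. Filled points had an adjusted p under 0.05, open points did not, and genes removed by the filter on low counts are written as not tested. *Oprm1* was higher and *Oprd1* lower in both *Foxp2* groups than in *Foxp2*-low nuclei. In the class comparison *Penk* and *Pnoc* rest on glutamatergic counts not told from background or at 0. Their positions and bars there are no measure of a fold or of its error.

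The *Foxp2* groups were each compared with *Foxp2*-low nuclei, and both comparisons share the *Foxp2*-low samples. Of the 7 genes, *Oprm1*, *Oprd1*, *Oprk1* and *Penk* passed the filter. Without *Rarb*, 1 of the 4 was higher (4.97% of 9630 genes) and 1 was lower (5.38%). *Oprm1* was 3.11-fold higher (1.64 ± 0.19, adjusted p = 3.37e-05) and *Oprd1* 2.56-fold lower (-1.36 ± 0.41, adjusted p = 0.0435). *Penk* (0.37 ± 0.39, adjusted p = 0.685) and *Oprk1* (0.74 ± 0.59, adjusted p = 0.568) did not pass.

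With *Rarb*, 2 of the 4 were higher (5.72% of 9630 genes) and 1 was lower (5.67%). *Oprm1* was 2.71-fold higher (1.44 ± 0.19, adjusted p = 9.68e-05), *Penk* 3.66-fold higher (1.87 ± 0.33, adjusted p = 0.00105) and *Oprd1* 2.43-fold lower (-1.28 ± 0.39, adjusted p = 0.0472). *Penk* in *Foxp2*-low nuclei, at 10.8 and 17.5 CPM, was near the 9.74 and 13.8 CPM of oligodendrocyte-like nuclei, from 3 and 4 UMIs. *Penk* in *Foxp2*-low nuclei was above the 0.913 and 2.43 CPM of astrocyte-like and the 0.834 and 1.89 CPM of glutamatergic nuclei. These levels thus differed between groups. Which of them measures a background, and how far the size of the *Penk* fold rests on it, was not tested. *Oprk1* was at 0.06 ± 0.66 (adjusted p = 0.979). Both *Oprd1* calls were lost with DESeq2, at adjusted p = 0.244 and 0.253, and without the 5% of all barcodes of a library with the most UMIs, at 0.0737 and 0.0743, while the direction held. *Pnoc* fell under the filter here. Against *Foxp2*-low nuclei with no *Foxp2* UMI it was tested and was lower in both *Foxp2* groups, with an adjusted p of 0.0321 without *Rarb* and 0.00819 with it. The *Foxp2* groups held 1 and 0 *Pnoc* UMIs without *Rarb* and 0 and 0 with it. It passed the filter there through the *Foxp2*-low counts alone and could only be called lower, so these p-values add no support to the counts.

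Between the *Foxp2* groups without and with *Rarb*, where 1.7% of 9630 genes passed, none of the 4 genes tested did by edgeR. None did by DESeq2 either, and 1, *Penk*, had an unadjusted p under 0.05. *Penk* was 2.83-fold lower without *Rarb* (-1.5 ± 0.36, adjusted p = 0.0508). The sums of a library come from the same tissue, and with the library as a block the value was -1.48 and passed, with an adjusted p of 0.0269. It also passed without the nuclei of highest UMI count (0.0329) and without the filter (0.000776), but not with DESeq2 (0.0917). *Oprm1* was at 0.20 ± 0.19 (adjusted p = 0.896), *Oprd1* at -0.08 ± 0.51 (0.992) and *Oprk1* at 0.68 ± 0.69 (0.902). *Penk* was thus the one gene of the family whose call between the *Foxp2* groups turned on the fit.

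The genes that mark striatal and central amygdala neurons were set beside *Penk*. The 4 indirect-pathway striatal markers (*Drd2*, *Adora2a*, *Gpr6*, *Sp9*) summed to 29.4 and 25.4 CPM without *Rarb*, 13.8 and 24.3 CPM with it and 29.1 and 41.7 CPM in *Foxp2*-low nuclei, with *Gpr6* at 0 throughout. The 3 direct-pathway markers (*Drd1*, *Tac1*, *Isl1*) summed to 17.6 and 10.3, 32.9 and 39.6, and 8.46 and 8.05 CPM in the same order. The 7 central amygdala markers ranged from 23.1 to 51.9 CPM over the 3 groups, with *Crh* at 0 in both *Foxp2* groups. In the group with *Rarb*, 14 and 42 nuclei held *Drd1* or *Tac1* but no *Drd2* or *Adora2a*, and had *Penk* at 63.5 and 37.7 CPM. The 43 and 113 nuclei with none of these genes had 58.9 and 43.7 CPM. The remaining 2 and 5 nuclei, with *Drd2* or *Adora2a* but no *Drd1* or *Tac1*, had 254 and 114 CPM, from 3 and 9 UMIs. *Penk* UMIs were thus found in all 3 classes, and 25 of 37 and 43 of 71 lay in nuclei with none of these genes.

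Within a group, nuclei were divided by a single marker gene, with at least 2 UMIs against none. These divisions compare nuclei of the same library and are given without a test. Their CPM intervals cover the counting of UMIs only and not the spread between nuclei. They can be too narrow, and their overlap is no test. In glutamatergic nuclei 11 of the 13 marker genes listed had at least 20 positive nuclei in each library. *Oprk1* was higher in both libraries with 3 of them, lower with 5 and mixed with 3. It was most uneven by *Rspo2*, a marker of basal amygdala neurons in the study. *Oprk1* stood at 38.7 CPM (exact Poisson 95% interval 31.3 to 47.2) and 26.6 CPM (15.5 to 42.6) in the 96 and 28 *Rspo2*-positive nuclei of libraries 2 and 3. It stood at 8.78 CPM (6.40 to 11.8) and 4.13 CPM (1.89 to 7.84) in nuclei without *Rspo2*. The ratios were 4.41 and 6.43, and the intervals did not overlap in either library. The *Rspo2*-positive nuclei were deeper, with medians of 24418 and 19108 UMIs against 13895 and 12207, and the part of depth was not tested.

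*Oprk1* was also higher with *Etv1*, at 26.8 against 9.65 CPM and 16.6 against 7.52 CPM, and with *Adamts2*, at 24.7 against 15.4 and 19.5 against 7.89 CPM. Of the *Rspo2*-positive nuclei, 65.6% and 67.9% also held *Etv1*, against 41.3% and 37.6% of all glutamatergic nuclei, so the divisions are not independent. *Oprk1* was lower with *Otof*, at 7.47 against 23.8 and 5.95 against 14.5 CPM, and with *Cdh13*, at 12 against 29.4 and 7.06 against 26.8 CPM.

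*Oprd1* shared part of this pattern. It was at 54.0 CPM (45.2 to 63.9) and 26.6 CPM (15.5 to 42.6) with *Rspo2*, against 26.0 CPM (21.7 to 30.8) and 16.5 CPM (11.6 to 22.9) without, and the intervals overlapped in library 3. With *Cdh13* it was lower, at 23.2 against 68.8 and 16.6 against 26.8 CPM. In glutamatergic nuclei with an *Oprk1* UMI, *Oprd1* was at 53.4 and 28.5 CPM, against 31.6 and 16.9 CPM in those without.

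*Oprm1* went the other way in *Rspo2*-positive glutamatergic nuclei. It stood at 35.9 CPM (28.8 to 44.1) and 32.8 CPM (20.3 to 50.2), against 64.8 CPM (58.0 to 72.1) and 54.2 CPM (44.8 to 64.9) without *Rspo2*, and the intervals overlapped in library 3. It was higher with *Slc17a6*, at 93.3 against 45.6 and 64.3 against 44.9 CPM, and with *Rorb*, at 98.3 against 44.5 and 57.2 against 44.7 CPM. In nuclei with an *Oprk1* UMI, *Oprm1* was at 35.1 and 15.5 CPM, the latter from 6 UMIs, against 58.1 and 54.9 CPM. By CPM, the kappa and mu receptor genes thus lay in opposite directions over the *Rspo2* division in both libraries. Shares of nuclei did not show this for *Oprm1*. A UMI of it was found in 43.8% and 46.4% of *Rspo2*-positive nuclei, which were deeper, against 40.7% and 40.0% of all glutamatergic nuclei.

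**Figure D4:**
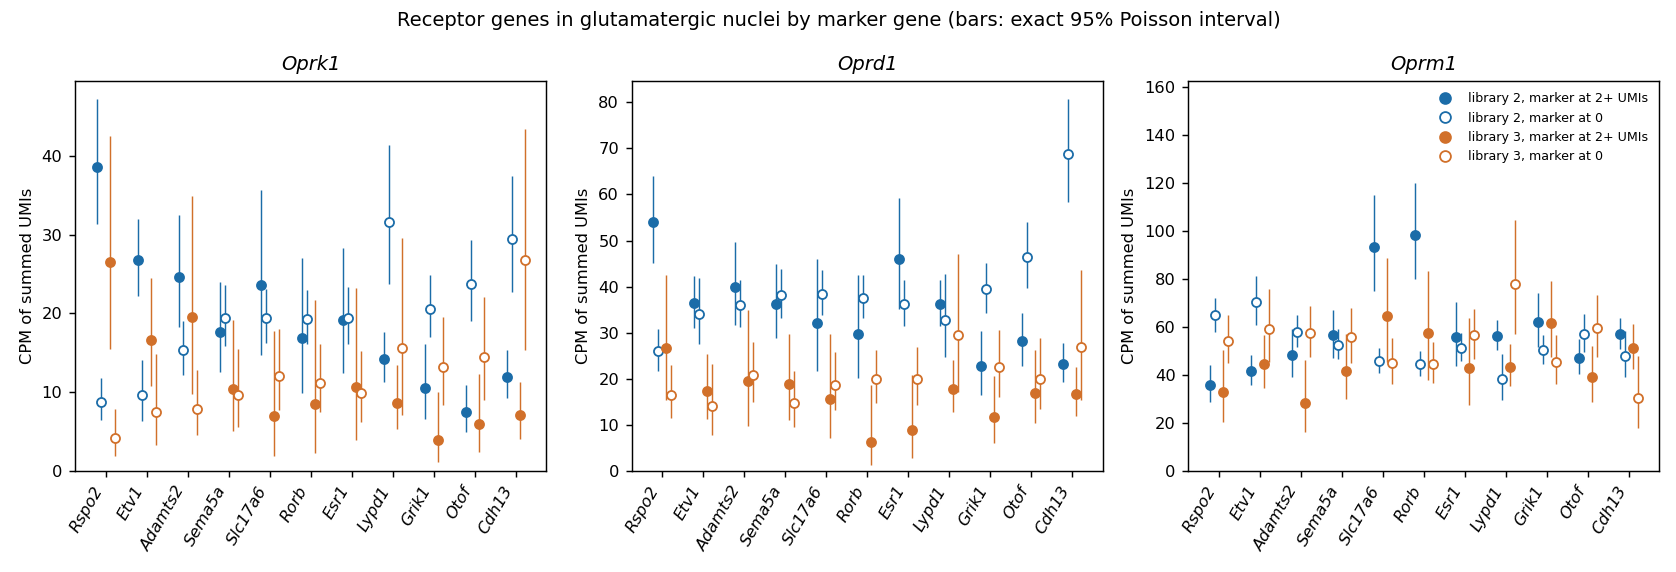
CPM of summed UMIs (y axes) of *Oprk1*, *Oprd1* and *Oprm1* in glutamatergic nuclei with at least 2 UMIs of a marker gene (filled) and with none (open), for the 11 markers with enough nuclei, by library, with exact Poisson 95% intervals. *Oprk1* stood at 38.7 and 26.6 CPM with *Rspo2* against 8.78 and 4.13 CPM without, and *Oprm1* lay lower with *Rspo2* in both libraries.

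In *Foxp2*-low nuclei 7 of the 13 interneuron markers had at least 20 positive nuclei in each library. *Pnoc* was higher in both libraries with *Reln* alone among them, at 19.0 CPM (9.11 to 34.9) and 12.6 CPM (6.06 to 23.2), against 2.13 CPM (0.439 to 6.22) and 6.80 CPM (3.51 to 11.9) in nuclei without *Reln*. The intervals overlapped in library 3. No *Pnoc* UMI was found in the 25 and 40 *Sst*-positive nuclei, and *Calb1*-positive nuclei held 0 and 2. The study separates BLA interneurons into *Reln* and *Calb1* populations, and *Pnoc* was higher with *Reln* and lower with *Calb1* in both libraries. With *Htr2a*, a cluster of the study's *Calb1* population, the libraries disagreed, at 0 against 8.04 CPM and 13.1 against 5.67 CPM. For clusters of its *Reln* population nuclei were few. The 4 and 10 *Cck*-positive nuclei held 0 *Pnoc* UMIs, the 5 and 6 *Lamp5*-positive nuclei 1 and 4, and the 6 and 8 *Ndnf*-positive nuclei 3 and 3.

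*Oprd1* was lower in *Reln*-positive *Foxp2*-low nuclei, at 17.1 against 53.3 and 10.1 against 26.1 CPM, and in *Cnr1*-positive nuclei, at 10.4 against 49.3 and 5.56 against 22 CPM. By *Calb1* the libraries disagreed, with 59.5 against 32.0 CPM in library 2 and 10.5 against 24.7 CPM in library 3. *Oprm1* was lower in both libraries with 6 of the 7 markers, among them *Cnr1*, which encodes the cannabinoid receptor of a class of interneurons, at 48.1 against 75.3 and 38.9 against 76.6 CPM. The gap was small with *Sst*, at 65.7 against 67.5 and 64.8 against 70.3 CPM. It was small with *Tshz2* as well, at 67.7 against 68.7 and 65.7 against 70.4 CPM. With *Htr2a*, the remaining marker of the 7, *Oprm1* was higher, at 82.4 against 55.6 and 84.5 against 67.5 CPM.

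*Penk* in *Foxp2*-low nuclei came from few nuclei. Of 50 UMIs in library 3, 1 nucleus held 14. In the 9 and 17 nuclei with at least 2 UMIs of *Drd2*, the dopamine receptor gene of indirect-pathway striatal neurons, *Penk* was at 76.3 CPM (34.9 to 145) and 122 CPM (78.2 to 182). In nuclei without *Drd2* it was at 7.18 CPM (3.93 to 12.1) and 10.0 CPM (6.54 to 14.7). The *Drd2*-positive values came from 9 and 24 UMIs in 5 and 6 nuclei, and the intervals leave out such clustering. The *Drd2*-positive nuclei are under 20 a library, and the *Drd2* division was named after its values were seen. Of the other indirect-pathway markers, the 3 and 2 *Adora2a*-positive nuclei held 8 and 8 *Penk* UMIs. The 4 and 4 *Sp9*-positive nuclei held 0, and *Gpr6* had no positive nuclei. Of the central amygdala markers, the 2 and 3 *Prkcd*-positive nuclei held 3 and 4 *Penk* UMIs and the 2 and 6 *Wfs1*-positive nuclei 3 and 16. The 6 and 12 *Calcrl*-positive nuclei held 9 and 8, and the 1 and 1 *Tac2*-positive nuclei 0. *Penk* was lower in both libraries with 6 of the 7 markers that had enough nuclei, and mixed with *Sst*. It was low with *Reln*, at 1.90 and 3.79 CPM from 1 and 3 UMIs, and with *Moxd1*, at 0 and 4.94 CPM. By *Sst* the libraries disagreed, at 23.0 against 8.65 CPM in library 2 and 5.19 against 20.9 CPM in library 3.

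**Figure D5:**
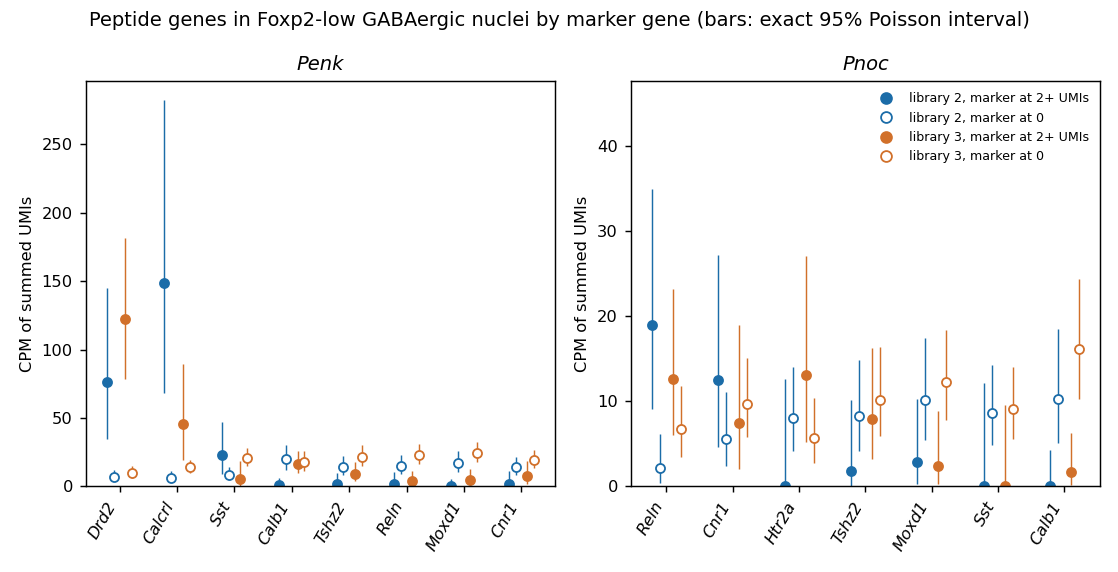
CPM of summed UMIs (y axes) of *Penk* and *Pnoc* in *Foxp2*-low GABAergic nuclei with at least 2 UMIs of a marker gene (filled) and with none (open), by library, with exact Poisson 95% intervals. *Penk* was at 76.3 and 122 CPM in the 9 and 17 *Drd2*-positive nuclei and at 149 and 45.5 CPM in the 6 and 12 *Calcrl*-positive nuclei, and *Pnoc* at 19.0 and 12.6 CPM in *Reln*-positive nuclei. The *Calcrl* values came from 9 and 8 UMIs in 2 and 4 nuclei. Other striatal and central amygdala markers are not shown. *Penk* was at 160 and 180 CPM in the 2 and 3 *Prkcd*-positive and at 151 and 169 CPM in the 2 and 6 *Wfs1*-positive nuclei. With *Adora2a* it was at 174 and 506 CPM in 3 and 2 nuclei. It was at 0 in the 4 and 4 *Sp9*-positive, the 3 and 3 *Tac1*-positive and the 1 and 1 *Tac2*-positive nuclei.

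Counted per nucleus, at least 1 receptor UMI was found in 75.3% and 72.8% of nuclei with *Foxp2* and no *Rarb*, 71.2% and 65.0% with *Rarb*, 45.5% and 44.2% of *Foxp2*-low nuclei and 65.9% and 58.6% of the deeper glutamatergic nuclei. A peptide precursor UMI was found in 9.59% and 13.9%, 49.2% and 29.4%, 10.2% and 12.6%, and 1.65% and 2.38% of the same groups. In the group with *Rarb*, 18 of 27 and 26 of 42 *Penk*-positive nuclei also held *Oprm1*, that is 66.7% and 61.9%, against *Oprm1* in 71.2% and 60.6% of all its nuclei. Nuclei with UMIs of 2 or more precursor genes numbered 0 to 2 per group and library.

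The other genes of opioid signalling were taken from a list of 39 genes for precursor processing, peptide breakdown, G proteins, kinases, arrestins and effectors. Between glutamatergic and GABAergic nuclei 35 were tested, of which 7 were higher and 7 lower, against 7.75% and 8.66% of all genes tested. Their median log2 fold change was 0.13 against -0.02 over all genes tested. The genes with the largest differences were *Mme*, which encodes the enkephalin-cutting enzyme neprilysin (-4.09 ± 0.50, adjusted p = 7.05e-05), *Rgs9*, a striatal regulator of G proteins (-3.26 ± 0.23, adjusted p = 9.50e-07), and *Ece2* (-1.54 ± 0.23). They were lower in glutamatergic nuclei, as was *Pam*, for the amidating enzyme (-1.19 ± 0.20). *Pcsk2*, a prohormone convertase (1.29 ± 0.23), and *Cpe*, the carboxypeptidase that follows it (1.19 ± 0.21), were higher in glutamatergic nuclei. *Penk* and *Mme* thus both lay on the GABAergic side, while *Pcsk2* and *Cpe* lay on the other.

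In both *Foxp2* comparisons 33 of the 39 were tested. Without *Rarb*, 3 were higher and 4 lower than in *Foxp2*-low nuclei, against 4.97% and 5.38% of all genes. With the library as a block these became 4 and 8, and 15.5% of all genes passed in either direction. With *Rarb*, 3 were higher and 5 lower, against 5.72% and 5.67% of all genes. Their medians were -0.10 and -0.15 on the log2 scale, against -0.02 and -0.03 over all genes. *Kcnj6*, a subunit of the potassium channels that opioid receptors open, was higher in both *Foxp2* groups (1.31 ± 0.19, adjusted p = 0.000252, and 0.99 ± 0.19, adjusted p = 0.00264), as was *Oprm1*. *Grk3*, a receptor kinase, was lower in both (-1.26 ± 0.19 and -1.74 ± 0.20), and so was the adenylyl cyclase gene *Adcy8* (-1.60 ± 0.24 and -0.76 ± 0.22). *Pam* (-2.21 ± 0.22) and *Pcsk1* (-1.61 ± 0.39) were among the lower genes without *Rarb*. *Adcy1* was lower with *Rarb* (-0.90 ± 0.23). *Rgs9* was higher in both groups (1.03 ± 0.23 and 2.13 ± 0.22) and *Adcy5* in the group with *Rarb* (1.24 ± 0.19). Between the *Foxp2* groups 3 of 33 passed, against 1.7% of all genes, and *Adcy5* (-1.5 ± 0.20, adjusted p = 0.00135), *Pam* (-1.48 ± 0.22) and *Rgs9* (-1.10 ± 0.22) were lower without *Rarb*. With the library as a block 6 passed, against 3.81% of all genes. *Gnai1*, for an inhibitory G protein subunit, was then also lower (-0.83, adjusted p = 0.0231), while the kinase gene *Grk5* (0.90, adjusted p = 0.0112) and the calcium channel gene *Cacna1a* (0.64, adjusted p = 0.00629) were higher without *Rarb*.

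For each member the genes with the most similar levels over 9 nucleus groups and both libraries (18 points) were sought among 12904 genes with a mean of at least 10 CPM in a group, by Pearson's r of log2(CPM + 1). The points share libraries and differ in depth, 10 of them are glia-like groups with few or no UMIs of the members, and r is a description. It was also taken over the 8 neuron points, a choice made after seeing the data. For *Oprm1* the closest were *Prlr* (0.93), *March4* (0.92) and *Cdon* (0.92), with 0.68, 0.90 and 0.72 among neurons. For *Oprd1* they were *Tmem169* (0.96), *Uchl1os* (0.95) and *Cep170b* (0.95), with 0.40, 0.61 and 0.59 among neurons. For *Oprk1* they were *Lrrc73* (0.92), *C630031E19Rik* (0.92) and *Gm11817* (0.91), with 0.61, -0.12 and 0.12 among neurons. The highest *Oprk1* point was 1 UMI in 31 vascular-like nuclei of library 2 (23.1 CPM), and r was near 0 among neurons for *C630031E19Rik* and *Gm11817*. *Penk* was closest to *Gm16894* (0.85), *BC052040* (0.82) and *Ccdc187* (0.79), with 0.85, 0.71 and 0.92 among neurons. *Ccdc187* averaged 30.9 CPM without *Rarb* and 68.6 CPM with it. *Oprl1* was closest to *Kif15* (0.93), *B9d1* (0.87) and *Gm15513* (0.86), with 0.72, 0.48 and 0.58 among neurons. *Pdyn* and *Pnoc* were themselves under 10 CPM in every group. *Pdyn* was closest to *Gm40663* (0.89), *Otogl* (0.84) and *Gm45680* (0.82), and *Pnoc* to *Gm41333* (0.85), *Vip* (0.81) and *Edaradd* (0.79). Among neurons these were 0.92, 0.91 and 0.74, and 0.86, 0.75 and 0.97.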

How the data were processed

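Nuclei of 3 libraries of 1 condition were sequenced with 10x 3′ chemistry. The authors aligned the reads to mm10 with Cell Ranger 7.0.1, per the labels, and deposited the counts of UMIs for every gene in every barcode, not normalized. Whether introns or strand were used in counting is not given in the sources used here. From these counts, barcodes were grouped by transmitter genes, *Foxp2*, *Rarb* and glial genes. Mixed barcodes fell out with the transmitter rule, and no doublet caller was run. The members and lists were chosen with earlier results of these data known.

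Counts were summed per group and library in Python 3.11.15 and tested in R 4.3.3 with edgeR 4.0.16 (quasi-likelihood test, TMM, filterByExpr, Benjamini-Hochberg adjustment, threshold 0.05), without a block. This test gives no standard error. The SE shown is the absolute log2 fold change divided by the square root of its F statistic. Alternatives were DESeq2 1.42.0, the library as a block, other gates, the study's quality limits, no filter, library 1 added, and the 5% of all barcodes of a library with most UMIs left out. That last choice fell unevenly on the classes. It kept 358 of 484 and 172 of 210 glutamatergic nuclei, and 374 of 388 and 652 of 677 GABAergic nuclei, in libraries 2 and 3. Test scripts were checked on simulated counts. Of 2-fold changes, 55% were recovered between the classes and 34% between the *Foxp2* groups, and of 4-fold changes 100% in both. Sparse genes were given no change there, so a 2-fold difference of a member can be missed. The libraries are the replicates (n = 2). Whether they are separate pools of brains is not stated, so p-values measure the spread between libraries, which may be technical. Libraries 1, 2 and 3 held 8078394, 24354374 and 33049068 UMIs. Deviations of sums of the same library from their group means correlated over genes with r of 0.18 to 0.26 in 4 pairs of groups, and the sums share tissue, so libraries pair the groups.

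Shares have exact Clopper-Pearson and single-library CPM exact Poisson 95% intervals. The Poisson intervals take UMIs as independent and leave out their clustering in nuclei. A count of 0 allows up to 3 counts. Shares at equal depth are the hypergeometric expectation at 3700 UMIs, the 10th percentile over grouped neurons taken down to a full 100, without 28 and 14 shallower glutamatergic and 51 and 76 GABAergic nuclei. Positions are from GENCODE vM21 (GRCm38, the assembly of mm10) and promoters from RefSeq (GRCm38.p6), which matched 4 of the 7 genes in the table used here.

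All 7 genes are named in every comparison. Of the 39 pathway genes, up to 6 per comparison with the largest difference among those that passed are named, and for each member the 3 genes most alike.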

Additional observations from a re-analysis of the deposited data

Results flagged for a closer look

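Library 1 entered no main comparison, and all 7 genes were found in it above the limit that a count of 0 allows (0.371 CPM over its 819 barcodes). *Oprm1* was at 50.6 CPM, *Oprd1* at 12.1 CPM, *Oprk1* at 31.2 CPM, *Oprl1* at 31.8 CPM, *Penk* at 54.5 CPM, *Pdyn* at 2.97 CPM and *Pnoc* at 4.83 CPM. Over all barcodes of libraries 2 and 3, *Oprl1* was at 3.57 and 2.81 CPM and *Penk* at 7.72 and 10.7 CPM. A *Penk* UMI was found in 36.6% of the barcodes of library 1, against 3.64% and 4.99%. In its 42 glutamatergic nuclei *Penk* was at 59.2 CPM, from 20 UMIs, against 0.834 and 1.89 CPM in libraries 2 and 3. Since 62.9% of the barcodes of library 1 held both pairs of transmitter genes, these levels could not be assigned to a class of neurons, and the cause was not tested.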

How the results depend on the processing

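Of 112 refitted fold changes of single members, 101 kept direction and side of the threshold, 7 lost the call, 3 gained it and 1, *Oprl1* between the classes with transmitter genes at 4 UMIs, turned to 0.12 on the log2 scale. For glutamatergic against GABAergic nuclei, adding library 1 left 0 members and 5 genes called, and the replicate block gave 3216 genes. Between the *Foxp2* groups, 1 member (*Penk*) was called with the replicate block, without the top 5% of UMIs and with no filter, and 367 genes were called with the block and 272 with no filter, against 164. Without *Rarb* against *Foxp2*-low nuclei, 1 member was called with DESeq2 or without the top 5% of UMIs, and DESeq2 called 626 genes against 997. With *Rarb* against *Foxp2*-low nuclei, the block called 1668 and DESeq2 660 genes against 1097. The block changed no other call of a member, and raised the listed pathway genes called from 14 to 19, 3 to 6, 7 to 12 and 8 to 11 in the 4 comparisons, in the order given here. Leaving out a library leaves no residual degrees of freedom, so it gave log2 ratios of CPM without a test, of which 36 of 40 kept the direction of the mean. Each such ratio is that of the other library alone. At least 1 of each pair therefore has the direction of their mean by construction. The study's quality limits left the sums of the *Foxp2* and *Foxp2*-low groups unchanged, so those refits count as kept by construction too. Library 1 could not be added to the *Foxp2* comparisons, where it has no nuclei. *Pdyn* and *Pnoc*, at 41 or fewer UMIs, are limited by depth, and the causes of these changes were not tested.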
